A study of Mus musculus with 6 samples.

Results

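Caveolae and the diaphragms of endothelial fenestrae were followed through 8 genes, Cav1, Cav2, Cavin1, Cavin2, Cavin3, Plvap, Ehd2 and Ehd4. The genes were chosen by name for their part in these membrane structures, with the older names Ptrf, Sdpr and Prkcdbp accepted for the cavins. All 8 were measured, out of 18193 genes that had a probe set annotated to a single gene. They had 17 such probe sets. Each gene is represented below by its brightest probe set, judged by the mean of all 6 arrays, and the other 9 are given beside it.

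RNA came from CD31-positive endothelial cells that were sorted out of the mammary glands of FVB/N mice aged 9 weeks, on 1 Affymetrix mouse expression array per sample. Mice of the 3 deleted samples had the genotype PyMT;Fsp-cre;Ets2db/loxP, and mice of the 3 control samples the genotype PyMT;Ets2db/loxP. All 6 thus carried the PyMT oncogene, which is driven in the mammary epithelium, together with a loxP allele of the transcription factor Ets2 and a db allele, a conventional knockout of its DNA-binding domain that is present in every cell. Only the deleted samples carried Fsp-cre, in which the fibroblast specific protein 1 promoter drives the recombinase that removes the loxP allele in fibroblasts, so the comparison asked how Ets2 in tumor fibroblasts affects the endothelial cells near them. One label of the control samples speaks of no oncogene, but their titles and genotype labels include PyMT and were followed here. The deletion was aimed at cells outside the sorted fraction, and these arrays do not check it.

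Caveolae are flask-shaped pits of the plasma membrane that are abundant in capillary endothelium, fat cells and smooth muscle. Caveolins insert into the membrane and oligomerize, cavins assemble into a coat around the pit, and EHD proteins form rings at its neck. In capillary and venous endothelium PLVAP builds the thin diaphragms that span caveolae, fenestrae and transendothelial channels, and it is a common marker of blood vessels that leak, including those of tumors. Caveolae take part in transcytosis of albumin, in buffering membrane stretch and in restraining endothelial nitric oxide synthase.

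No gene of the caveolar and diaphragm machinery differed between the deleted and the control samples by more than the spread between replicates. The differences, deleted mean minus control mean on the log2 scale, ran from -0.10 for Ehd2 to 0.22 for Cavin1, where a difference of 1 is a fold change of 2. All 8 genes had an adjusted p of 0.9999 in limma's moderated test with Benjamini-Hochberg adjustment over 45037 probe sets, which called 0 of the 8 and 0% of all probe sets. Before adjustment 0 of the 8 genes and 0 of their 17 probe sets had a limma p under 0.05, against 1.79% of all genes and 2.07% of all probe sets. At the study's own limits (more than 2-fold and p under 0.05, taken here as the unadjusted limma p) 0 of the 8 passed, against 0.0934% of all genes. Deleted and control values overlapped for each of the 8 genes, while they did not for 6.07% of all genes (3.36% higher and 2.7% lower in the deleted samples). All 8 of the 95% intervals stayed within a fold change of 2 in either direction.

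In direction, 6 of the 8 genes had a higher mean in the deleted samples and Plvap and Ehd2 a lower one, against 50.9% of all genes and 48.6% of genes brighter than the median. The median difference of the 8 genes was 0.13, against 0.00 over all 18193 genes, and 12 endothelial markers measured on the same arrays had a median difference of 0.13 as well. Without control replicate 3 only 4 of the 8 were higher and the median was 0.00. When each array was centred on the endothelial markers, the median of the 8 genes was -0.02, on a scale where the median of all genes moved to -0.15. Centring lowered the difference of every gene by the same amount, so this change of sign says nothing about the 8 genes in particular. The count of higher genes and their median did depend on control replicate 3. In bulk RNA of a sorted fraction, fewer cells of a type and less RNA per cell cannot be told apart.

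**Figure D1:**
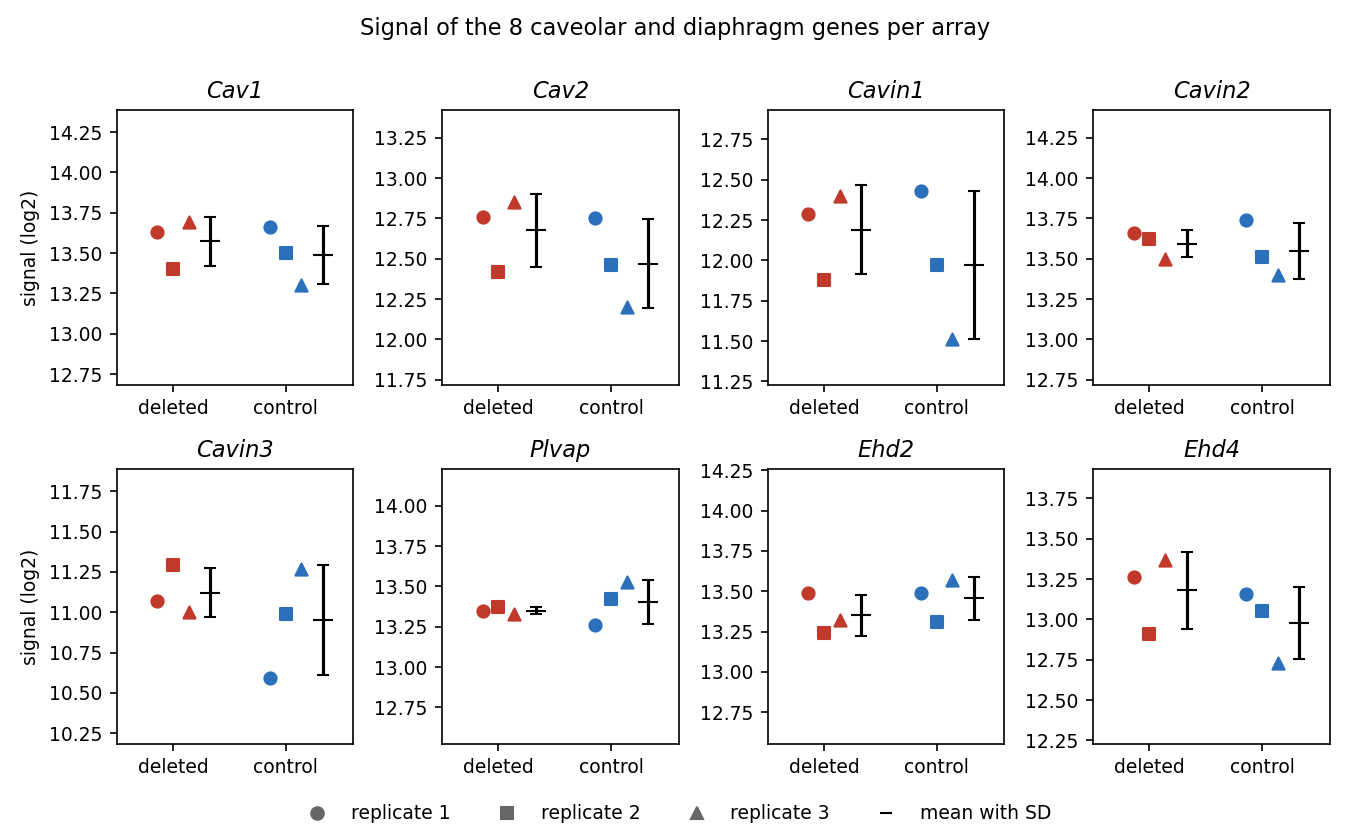
Signal (log2, vertical axis) of the brightest probe set of each gene, with deleted arrays in red on the left and control arrays in blue on the right. Marker shapes tell the replicates apart, and black bars give mean and SD (n = 3 per group). Panels share the span of their vertical axes, and in each the deleted and control arrays overlap.

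Both caveolins gave bright signals in all 6 samples. Cav1, the structural protein without which endothelial caveolae do not form, read 13.63, 13.40 and 13.69 in the deleted samples, against 13.66, 13.50 and 13.30 in the control samples. The highest and the lowest Cav1 values thus lay 0.40 apart, and each group held high and low arrays. Its difference was 0.09 with a 95% interval from -0.29 to 0.47, or 0.82-fold to 1.38-fold. Cav2, which joins Cav1 in mixed oligomers, read 12.76, 12.42 and 12.85 in the deleted samples, against 12.75, 12.46 and 12.20 in the control samples. Deleted replicate 2 and control replicate 3 were low for both caveolins. Cav2 differed by 0.21 with a 95% interval from -0.25 to 0.67. A second Cav2 probe set, with signals near 7.03, the median over all probe sets, differed by 0.00.

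The cavins did not vary alike between arrays. Their SD over all 6 was 0.36 for Cavin1, 0.25 for Cavin3 and 0.13 for Cavin2, and for none of them did the groups separate. Cavin1, the coat protein that caveolae cannot assemble without, read 12.29, 11.88 and 12.40 in the deleted samples, against 12.43, 11.97 and 11.51 in the control samples. It had the widest range of the 8 genes, 0.92, set by control replicate 1 at the top and control replicate 3 at the bottom. Its difference of 0.22 had a 95% interval from -0.40 to 0.83 and became -0.01 without control replicate 3. The remaining Cavin1 probe sets were dim and differed by -0.09 and 0.16. Cavin2, a phosphatidylserine-binding cavin that shapes caveolae in the endothelium of some organs, read 13.66, 13.62 and 13.50 in the deleted samples, against 13.74, 13.51 and 13.40 in the control samples, a difference of 0.04 with an interval from -0.31 to 0.39.

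Control replicate 3 was the lowest array at the dimmer Cavin2 probe sets, by a wide margin only at the dimmest. The dimmest read 10.11, 10.33 and 10.35 in the deleted samples, against 10.76, 10.50 and 9.08 in the control samples. The other read 11.09, 11.53 and 11.55 in the deleted samples, against 11.91, 11.53 and 10.83 in the control samples. The control spread at these probe sets, with an SD of 0.90 and 0.55, was therefore wider than at the bright one, where it was 0.18. They differed by 0.15 and -0.04, and by -0.37 and -0.33 without control replicate 3. That array also had the largest gap between 3' and 5' control probe sets, 1.31 log2 units for Gapdh and 1.67 for beta-actin, against 0.75 to 1.01 and 0.99 to 1.29 in the other 5 arrays. The part of this gap in the Cavin2 values was not tested.

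Cavin3, a coat protein first described as a binding protein of protein kinase C delta, read 11.07, 11.29 and 11.00 in the deleted samples, against 10.59, 10.99 and 11.27 in the control samples. Its low array was control replicate 1, the array in which Cavin1 and Cavin2 were highest. Cavin3 differed by 0.17 with a 95% interval from -0.31 to 0.65, and by -0.01 without control replicate 1.

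Plvap was the least variable of the 8 genes. It read 13.35, 13.37 and 13.33 in the deleted samples, against 13.26, 13.42 and 13.53 in the control samples. The deleted values lay inside the control range, with an SD of 0.02 against 0.14 over 3 arrays each. The difference was -0.06 with a 95% interval from -0.38 to 0.26, or 0.77-fold to 1.20-fold.

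The EHD ATPases pointed in opposite directions. Ehd2, which holds caveolae at the cell surface by oligomerizing around their necks, read 13.49, 13.24 and 13.32 in the deleted samples, against 13.49, 13.31 and 13.57 in the control samples. That is a difference of -0.10 with an interval from -0.45 to 0.24, whereas its other bright probe set read 12.70, 12.62 and 12.65 in the deleted samples, against 12.73, 12.36 and 12.55 in the control samples, a difference of 0.11. The 2 bright probe sets of this gene therefore disagreed in sign, and its 3 dimmer ones differed by -0.24, -0.04 and -0.04. Ehd4, a relative that acts in endocytic recycling and has also been placed at caveolae, read 13.26, 12.91 and 13.37 in the deleted samples, against 13.16, 13.05 and 12.73 in the control samples. Its difference of 0.20 had an interval from -0.24 to 0.64 and shrank to 0.07 without control replicate 3.

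**Figure D2:**
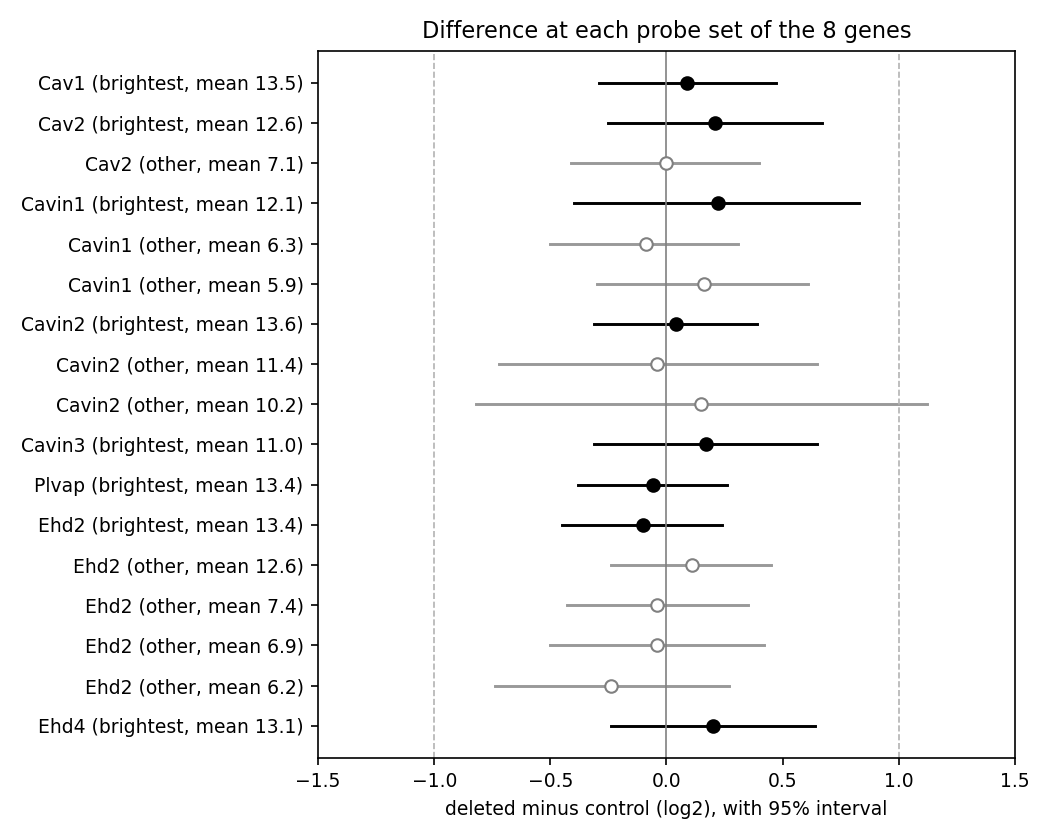
Difference between the deleted and the control mean (log2, horizontal axis) with its 95% interval from limma for all 17 probe sets, black for the brightest of each gene and grey for the others, with the mean signal over the 6 arrays in each label. Every interval holds 0, and only that of the dimmest Cavin2 probe set, from -0.82 to 1.12, reaches past the dashed lines at a fold change of 2.

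At their brightest probe sets, Cav1, Cav2, Cavin1 and Ehd4 rose and fell together over the 6 arrays, in both groups. Each of them was high in deleted replicates 1 and 3 and control replicate 1 and low in deleted replicate 2 and control replicates 2 and 3. Over the 28 pairs of the 8 genes, 7 had a Pearson correlation with an adjusted p under 0.05 in an exact two-sided permutation test over the 6 arrays, and 0 had one by Spearman's rho, where the smallest adjusted p of the exact test was 0.0778. All 6 pairs among these 4 genes were in the 7, with r from 0.94 to 0.99. Cav2 and Ehd4 had r = 0.98 (exact permutation p = 0.00139, the smallest that 6 arrays can give, adjusted p = 0.0194). Their rho was 1 (exact permutation p = 0.00278, the smallest that rho can give with 6 arrays, adjusted p = 0.0778). A single pair with a perfect rho could therefore not pass the adjustment over 28 pairs. For the neighbours Cav1 and Cav2 r was 0.99 (exact permutation p = 0.00278, adjusted p = 0.0194) and rho was 0.94 (exact permutation p = 0.0167, adjusted p = 0.0933). With the 2 arrays farthest from the median left out, r of the 6 pairs lay between 0.87 and 0.99. Averaged over all probe sets of each gene, dim ones included, the lowest r among the 4 genes fell to 0.68. The 4 genes were grouped after their values were seen, and both groups are pooled here since 3 arrays are too few for a correlation within either. The share of pairs that pass among all other genes was not computed, so the count is not read as a trait of these 8 genes.

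Plvap ran against Cavin1. Their r was -0.92 (exact permutation p = 0.00694, adjusted p = 0.0324) and rho was -0.94 (exact permutation p = 0.0167, adjusted p = 0.0933), and r was -0.74 without the 2 farthest arrays. Its values spanned only 0.27, so this relation rests on small differences. With Cav1, Cav2 and Ehd4 the r of Plvap was -0.85, -0.86 and -0.76, and these did not pass the adjustment (adjusted p = 0.0778, 0.0778 and 0.181 in the exact permutation test). After centring on the endothelial markers the pair of Plvap and Cav1 had r = 0.38 and the pair of Plvap and Cavin1 r = -0.82. Centring subtracts the same marker mean from both genes, and that mean varied more between arrays than Plvap did. These centred coefficients therefore do not show how Plvap itself relates to either gene. Cavin3 had negative coefficients with all 4 genes, from -0.56 to -0.75, and none of them passed the adjustment.

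The signals of the co-varying genes were correlated with the mean signal of the endothelial markers. All 12 endothelial markers were brighter than the median probe set. Their mean level was 12.38, 12.04 and 12.32 in the deleted samples, against 12.22, 12.18 and 11.88 in the control samples, and Pecam1, which encodes CD31, read 11.93, 11.27 and 11.88 in the deleted samples, against 11.58, 11.49 and 10.83 in the control samples. Over 8 such comparisons, the mean marker level had r = 0.94 with Cav1 (exact permutation p = 0.00694, adjusted p = 0.0185), 0.93 with Cav2, 0.90 with Cavin1 and 0.96 with Ehd4. Spearman's rho was 0.83 for Cav1 (exact permutation p = 0.0583), 0.94 for Cav2, 0.77 for Cavin1 and 0.94 for Ehd4, and r without the 2 farthest arrays was 0.94, 0.88, 0.83 and 0.97 in the same order. The other 4 members did not pass the adjustment, with r = -0.73 for Plvap (exact permutation p = 0.103), -0.53 for Cavin3, 0.51 for Cavin2 and -0.14 for Ehd2. The share of all genes that follow the markers this closely was not computed. After each array was centred on the endothelial markers, an alternative chosen after seeing the data, r among the 4 genes ranged from 0.22 to 0.91, lowest for the pairs with Cav1. Here too the same mean was subtracted from every gene.

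Control replicate 3, in which the 4 genes were lowest and Plvap highest, differed from the other arrays in further measures. It was the array with the 3' to 5' gaps given above, and it had the highest mean level of the macrophage markers, at 9.83, and of the epithelial markers, at 12.13. Without it, r of the 6 pairs lay between 0.87 and 0.97, and r of Plvap and Cavin1 was -0.79. The part of these measures in the shared pattern was not tested.

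**Figure D3:**
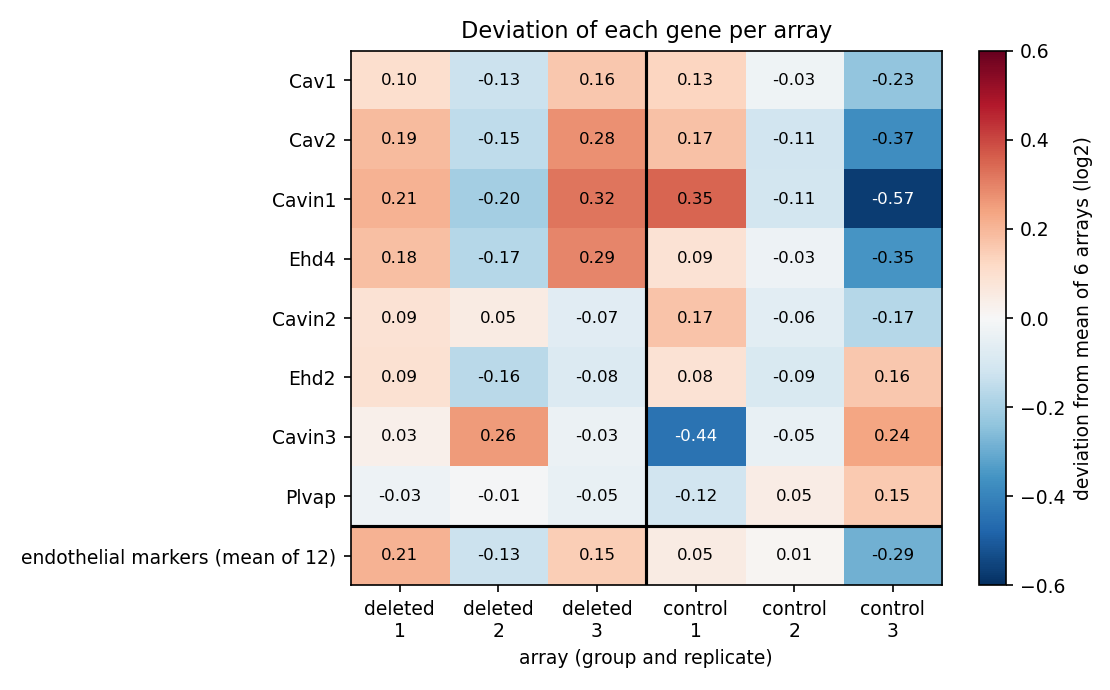
Deviation of each gene from its mean over the 6 arrays (log2, color and printed values), with the deleted arrays on the left and the control arrays on the right, and the mean deviation of 12 endothelial markers in the bottom row. Cav1, Cav2, Cavin1 and Ehd4 share their signs on every array and are lowest in control replicate 3, at -0.23, -0.37, -0.57 and -0.35, where Plvap is highest, at 0.15.

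The promoter windows of the 4 genes that moved together are shown, since their joint movement is the pattern that stands out among the 8. RefSeq windows on GRCm38.p6, from 250 bases before to 50 after the start, were at hand for 6 of the 8 genes. Capitals mark GGAA, the core bound by transcription factors of the Ets family, on either strand (TTCC where it lies on the other strand), and each sequence runs 5′ to 3′ along its gene.
Cav1, chr6:17306085-17306384 (plus strand): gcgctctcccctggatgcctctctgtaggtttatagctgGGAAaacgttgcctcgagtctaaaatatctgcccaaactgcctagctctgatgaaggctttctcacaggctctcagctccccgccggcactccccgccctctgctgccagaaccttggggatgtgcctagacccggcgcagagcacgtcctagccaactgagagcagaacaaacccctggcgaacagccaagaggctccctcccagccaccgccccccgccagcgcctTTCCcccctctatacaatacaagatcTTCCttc
Cav2, chr6:17280935-17281234 (plus strand): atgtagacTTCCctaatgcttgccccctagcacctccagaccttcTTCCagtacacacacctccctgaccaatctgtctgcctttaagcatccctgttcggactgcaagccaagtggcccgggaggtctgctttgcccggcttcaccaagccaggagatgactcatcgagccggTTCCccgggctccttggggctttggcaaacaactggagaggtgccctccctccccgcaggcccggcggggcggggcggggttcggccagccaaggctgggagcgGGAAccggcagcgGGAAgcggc
Cavin1, chr11:100970568-100970867 (minus strand): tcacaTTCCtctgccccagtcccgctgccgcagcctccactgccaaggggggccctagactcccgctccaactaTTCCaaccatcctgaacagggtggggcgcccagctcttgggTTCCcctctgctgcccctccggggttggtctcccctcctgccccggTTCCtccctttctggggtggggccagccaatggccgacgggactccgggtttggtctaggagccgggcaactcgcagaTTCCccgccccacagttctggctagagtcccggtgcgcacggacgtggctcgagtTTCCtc
Ehd4, chr2:120154526-120154825 (minus strand): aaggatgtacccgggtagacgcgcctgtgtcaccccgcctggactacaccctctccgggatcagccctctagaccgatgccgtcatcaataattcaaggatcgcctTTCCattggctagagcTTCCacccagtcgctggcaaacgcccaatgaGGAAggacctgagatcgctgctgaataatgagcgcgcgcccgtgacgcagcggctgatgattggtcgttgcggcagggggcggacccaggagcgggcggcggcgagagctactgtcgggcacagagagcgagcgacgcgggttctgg

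GGAA was found 3 times in the Cav1 window, 5 times in that of Cav2, 6 times in that of Cavin1 and 3 times in that of Ehd4. Of 32851 promoter windows of 300 bases, 96.0% held it at least once, with a median count of 3. The longer GGAAGT occurred once in the Cav2 window and in none of the other 3 shown, against 23.8% of all windows. The CCAAT box was found once for Cav2, once for Cavin1, 3 times for Ehd4 and not for Cav1, against 37.4% of all windows. The GC box GGGCGG was found in all 4, against 35.7% of all windows. The content of G and C was 59.3% for Cav1, 64.3% for Cav2, 66.7% for Cavin1 and 62.7% for Ehd4. The shares over all windows were not matched for this content. The windows of Cavin2 and Ehd2, which lay outside this set, held some of the same matches. That of Cavin2, with 43.3% G and C, had GGAA 5 times, GGAAGT once and CCAAT once but no GGGCGG. That of Ehd2, with 62.0% G and C, had CCAAT once and GGGCGG 2 times but no GGAA. All motifs were searched on both strands, and GGAAGT contains GGAA. Cav2 and Cav1 lie next to each other on chromosome 6, with 0 protein-coding genes between them in this annotation. These matches describe letters and do not show that a factor bound there.

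The genes nearest in profile to the members with the widest spread came from many functions. For Cavin1, with an SD of 0.36 over the 6 arrays, the nearest of 11287 genes brighter than the median was Bcl2l2, a survival factor of the BCL2 family, at a root mean square distance of 0.0448 log2 units, followed by Spata2, Oxsr1, Ifnar1 and Prkaca. For Cav2, with an SD of 0.25, Elk1, a member of the Ets family itself, was nearest at 0.0373, followed by Ttc37, Cdc42ep4, the actin regulator Vasp and Coq10b. Ehd4 was the 15th nearest gene to Cav2, at 0.0509, Cav1 the 115th, at 0.0909, and Cavin1 the 293rd, at 0.111. For Cavin1, Cav2 was the 67th nearest gene, at 0.111, Ehd4 the 216th, at 0.144, and Cav1 the 595th, at 0.187. Many other genes thus lay nearer to Cav2 and Cavin1 than most of their co-varying partners did. For Cavin3, with an SD of 0.25, Sh3bp2 was nearest at 0.0541, followed by Dusp12, Map2k4, Zfp180 and B3glct. With 6 arrays and this many genes, near profiles also arise without any relation.

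Of 19 further genes of caveolar assembly, scission, rafts and signaling, 18 were measured, and Pacsin2 was not analysed here. Of these, 8 were higher and 10 lower in the deleted samples, with a median of -0.02, against 50.9% of all genes higher. By limma 0 had a p under 0.05 before or after adjustment, against 1.79% of all genes before it and 0% after it. Groups overlapped for all 18, while they did not for 6.07% of all genes. At these shares, counts of 0 among 18 genes are not read as a trait of this set. Nos3, the endothelial nitric oxide synthase that caveolin binds, read 10.10, 9.90 and 9.83 in the deleted samples, against 9.88, 9.92 and 10.38 in the control samples, a difference of -0.12 that became 0.04 without control replicate 3. Mfsd2a, a lipid transporter that restrains caveolar transcytosis in brain endothelium, read 8.41, 8.21 and 7.62 in the deleted samples, against 8.23, 7.59 and 7.83 in the control samples, a difference of 0.20 that was 0.03 without deleted replicate 1 and 0.43 without deleted replicate 3. Both genes overlapped between the groups.

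The largest differences in this set were those of 2 dynamins, GTPases that sever membrane necks. Dnm1, a mostly neuronal dynamin that was dim here, differed by -0.49 with a 95% interval from -1.27 to 0.29, by -0.25 without control replicate 3 and by -0.82 without deleted replicate 1. Dnm2, the dynamin of most cells, read 9.93, 11.22 and 10.40 in the deleted samples, against 10.32, 10.96 and 11.41 in the control samples, a difference of -0.38 that was -0.09 without deleted replicate 1 and -0.73 without deleted replicate 2. Ehd1, which acts in endocytic recycling, differed by -0.34, and by 0.01 without control replicate 3. Averaged over all probe sets of each gene, Dnm1, Dnm2 and Ehd1 differed by only -0.27, -0.08 and -0.10. The raft proteins Flot1 and Flot2 differed by -0.06 and -0.24, and by 0.30 and 0.15 without control replicate 3, where they read 11.37 and 11.06, against 10.08 to 10.74 and 9.83 to 10.25 in the other 5 arrays. The muscle relatives Cav3 and Cavin4 were dimmer than the median probe set and differed by 0.00 and 0.10.

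**Figure D4:**
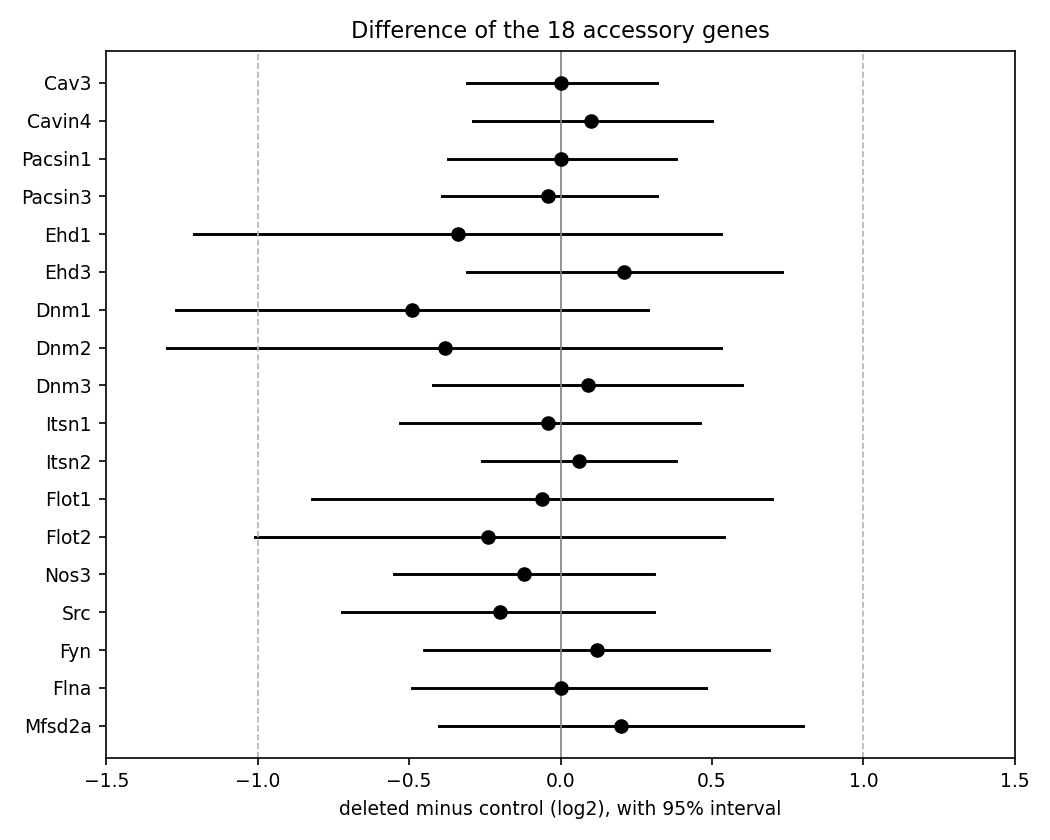
Difference between the deleted and the control mean (log2, horizontal axis) with its 95% interval from limma for 18 accessory genes of caveolae. Every interval holds 0, and the widest are those of Dnm2, from -1.30 to 0.53, and Ehd1, from -1.21 to 0.53.

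Transcripts of other cells were present in the sorted fraction, and some of those cells also build caveolae. Of 8 adipocyte markers 6 were measured, 4 of them dimmer than the median probe set (Adipoq, Cidec, Lep and Retn), and their mean level ranged from 7.31 to 7.64 in the deleted samples, against 7.20 to 7.91 in the control samples. Of the bright ones, Fabp4 is made by capillary endothelium too and differed by 0.05, and Slc2a4 differed by 0.32, while the dim Retn differed by -0.26. Of 9 smooth muscle and pericyte markers 8 had a higher mean in the deleted samples, with a mean level of 9.99 to 10.04 in the deleted samples, against 9.55 to 9.99 in the control samples, 1 of the 9 had groups without overlap and a limma p under 0.05 before adjustment, and Tagln and Myh11 differed by 0.62 and 0.41. All 8 fibroblast markers had lower means, with a mean level of 9.36 to 9.50 in the deleted samples, against 9.71 to 10.20 in the control samples, 4 of the 8 had groups without overlap, against 6.07% of all genes, 3 had a limma p under 0.05 before adjustment, against 1.79%, and Dpt and Lum differed by -0.72 and -0.70. All 8 macrophage markers had lower means, at 8.28 to 8.91 in the deleted samples, against 9.12 to 9.83 in the control samples, 5 of the 8 had groups without overlap, 5 had a limma p under 0.05 before adjustment, and C1qb and Mrc1 differed by -1.30 and -0.93. All 7 epithelial markers lay above the median signal in cells sorted on CD31, at 11.71 to 11.95 in the deleted samples, against 11.89 to 12.13 in the control samples, and Krt5 and Cdh1 differed by -0.38 and -0.22. After adjustment, 0 of these markers were called by limma. With 1 array left out the named differences kept their direction, apart from Fabp4, which became -0.04 without control replicate 3. Krt5 shrank to -0.04 and C1qb to -0.85 without control replicate 3, Dpt to -0.28 and Retn to -0.07 without control replicate 1, Myh11 to 0.19 without control replicate 2, and Cdh1 to -0.09 and Slc2a4 to 0.13 without deleted replicate 1. The part of these cells in the signals of the caveolar genes was not tested.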

How the data were processed

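Endothelial cells of 6 mammary gland samples, 3 deleted and 3 control, were profiled by the authors on Affymetrix arrays. Their deposited values are log2 signals from RMA (Robust Multichip Average: background correction, quantile normalization and a summary per probe set), run by the authors with a software version that the sources at hand do not name. RMA narrows differences of dim probe sets, and signals of different probe sets do not order their transcripts.

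The table held 45101 probe sets. After 64 array controls were left out, 45037 were tested, of which 34945 had 1 gene in the platform annotation, 932 several and 9160 none named here. Symbols were updated through RefSeq gene numbers (34741 matched). No 2 arrays shared more than 0.218% of values. The number of arrays limits the precision, with a median 95% interval of 0.45 to either side of a difference. Whether a sample was 1 mouse or several pooled is not stated, and p-values measure only the spread between these samples.

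limma 3.58.1 in R 4.3.3 was run two-sided, without covariates or a filter, on the whole table and tested on simulated data. Pairs of genes were compared by exact permutation of the arrays in Python 3.11.15. Genes named are the 8 members, a fixed part of the accessory list with its 4 largest differences, the 5 nearest profiles of the 3 most variable members, and 2 markers of each list. Members and lists were chosen with earlier results of these data known. Alternatives tried were a signal filter, another prior, array weights, other centring and quantile scaling, the identifier number as a block, unmoderated tests, averaged probe sets and each array left out.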

Additional observations from a re-analysis of the deposited data

How the results depend on the processing

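Over the alternatives run, 0 probe sets passed an adjusted p under 0.05 in every fit, and 0 of the 8 genes passed an unadjusted p under 0.05. In the main limma fit, with the brightest probe set of each gene, 17 genes passed the study's thresholds, a count that is not the paper's own. It became 8 among probe sets above the median signal, 40 with array weights, 36 centred on endothelial markers, 6 and 5 in unmoderated fits with equal and unequal variances, 150 at a fold change over 1.5, and 19 to 70 with 1 array left out.

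The titles share 2 identifier numbers between the groups, but nothing says that they mark litters, and deviations of same-numbered samples correlated at 0.17 and -0.02. Control replicate 3 and deleted replicate 3 had numbers of their own. A fixed replicate block for each number therefore took up both arrays, and only the 2 shared pairs set the differences. In that fit 67 genes passed the study's thresholds, 3 of the 8 members were higher with a median of -0.02, and 13 accessory genes were higher. Under that block Cav1 differed by -0.06, Cav2 by -0.01, Cavin1 by -0.12, Plvap by 0.02, Ehd4 by -0.02, Nos3 by 0.10, Flot1 by 0.43, Flot2 by 0.26, Ehd1 by 0.26, the dimmest probe sets of Cavin1 and Cavin2 by -0.02 and -0.41, and a dim Ehd2 probe set by 0.02. Cavin3 grew to 0.39 there, the largest difference of a member in that fit, the middle Cavin2 probe set to -0.41 and the dimmest Ehd2 probe set to -0.52, while C1qb and Mrc1 shrank to -0.66 and -0.46. As a random block the number left 6 of 8 higher and a median of 0.13.

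Centring on endothelial markers lowered the difference of every gene by the same amount. Cav1 then differed by -0.06, Cavin2 by -0.11, the second bright Ehd2 probe set by -0.04 and the median member by -0.02. There 2 accessory genes were higher, the median of all genes was -0.15 and the lowest r among Cav1, Cav2, Cavin1 and Ehd4 was 0.22, or 0.68 over averaged probe sets. With array weights Ehd2 differed by 0.02, Flot1 by 0.04, Flot2 by 0.01, the dimmest Cavin2 probe set by -0.20 and dim Ehd2 probe sets by 0.20 and 0.01, and 13 accessory genes were higher. Above the median signal, which 4 of the 18 accessory genes did not pass, 5 were higher, and the differences of the genes kept did not change. Averaged over all probe sets of a gene, Flot2 differed by -0.13 and Slc2a4 by 0.09.

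With 1 array left out, 4 to 6 members were higher, the median ran from 0.00 to 0.16, 5 to 12 accessory genes were higher and 0 to 2 members had groups without overlap, namely Plvap without control replicate 1, Cavin3 without control replicate 3, and Cav2 and Ehd4 without deleted replicate 2, settings in which 16.5%, 13.1% and 19.1% of all genes had no overlap. The lowest r among the co-varying genes ran from 0.87 to 0.98. Differences ran from -0.01 to 0.18 for Cav1, 0.07 to 0.35 for Cav2, -0.01 to 0.45 for Cavin1, -0.03 to 0.14 for Cavin2, -0.01 to 0.33 for Cavin3, -0.13 to 0.01 for Plvap, -0.18 to -0.05 for Ehd2 and 0.07 to 0.34 for Ehd4. Among other probe sets they ran from -0.21 to 0.05 and 0.03 to 0.30 for Cavin1, -0.33 to 0.21 and -0.37 to 0.47 for Cavin2, and -0.17 to 0.07 and -0.19 to 0.13 for dim Ehd2 probe sets. They ran from -0.21 to 0.04 for Nos3, -0.35 to 0.30 for Flot1, -0.47 to 0.15 for Flot2, -0.61 to 0.01 for Ehd1, -0.73 to -0.09 for Dnm2, -0.82 to -0.25 for Dnm1 and 0.03 to 0.43 for Mfsd2a. The cause of these shifts was not tested. No detection call was used for probe sets dimmer than the median of 7.03.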
